A study of Drosophila melanogaster with 3 samples.

Results

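Transcripts of the cytosolic ribosomal proteins were compared in larval fat tissue of Drosophila melanogaster that carried the fat body driver Dcg-Gal4 alone (Dcg/+, control), with a transgene for the kinase Hippo (Dcg > Hpo), or with an RNAi construct against it (Dcg > Hpo-RNAi, knockdown). Members were all genes whose symbol begins with RpL, RpS or RpLP followed by a digit, which gave 92 of the 16509 genes in the count tables. They were divided into 78 abundant genes and 14 minor genes. A minor gene is the less counted partner of a pair whose symbols share a stem, with suffix a and b or with the ending -like, by counts summed over the 3 libraries. RpS28b is the abundant partner of both RpS28a and RpS28-like, so the 14 minor genes belong to 13 abundant ones.

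The control Dcg/+ shared the driver with both other genotypes and had no Hippo transgene or RNAi construct. Dcg-Gal4 acts in the fat body, the storage and endocrine organ of the larva that corresponds to liver and adipose tissue, and is also active in blood cells. The paper's methods give larval fat bodies as the source and other parts of it give the third instar, while GEO's own extraction text speaks of adult heads. Sex and the exact age of the animals were not given in the sources used here. Each genotype was represented by 1 library of pooled tissue, made by 3′ end sequencing of mRNA (QuantSeq). No spread between animals or preparations could therefore be estimated, no genotype was tested against another, and every interval below covers counting error only.

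A ribosome is built from a small and a large subunit, each an assembly of ribosomal RNA and a set of proteins, most of them present in 1 copy. The large subunit proteins are named RpL, the small subunit proteins RpS, and the acidic proteins of the stalk that recruits translation factors RpLP. Most fly ribosomal protein genes give a Minute phenotype when 1 copy is lost, with slow growth and short bristles. In flies some of the proteins have a second gene, and several of these duplicates are known for expression in the germ line of the testis or ovary. The genes named RpL7-like, RpL24-like and RpLP0-like are of another kind. Their yeast counterparts, Rlp7, Rlp24 and Mrt4, bind the pre-ribosome and act in the assembly of the large subunit. Rlp24 and Mrt4 hold the place of the true ribosomal protein there and are exchanged for it as the subunit matures.

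The libraries held between 21918672 and 23524682 counts. The hpo gene had 289 counts in control, 11568 in Dcg > Hpo and 182 in knockdown, which is 37.8-fold (95% interval 33.6 to 42.6) and 0.587-fold (0.485 to 0.709) relative to control. Markers of larval fat body took 18.2%, 18.4% and 17.9% of the counts, and all 8 of the 9 listed markers that were found in the tables had counts in every library. The even sum was carried by the abundant larval serum protein genes. In Dcg > Hpo the collagen genes vkg and Cg25C were more than 2-fold higher than in control (2.32-fold and 2.33-fold) and Fbp1 was 0.586-fold. In knockdown Cg25C was again at the high end, with 1262, 3117 and 2715 counts in the 3 libraries. The other collagen gene, vkg, had 1036, 2546 and 745 counts and was 0.670-fold in knockdown, where Lsp1gamma was 0.526-fold. Markers of other tissues were unequal between the libraries. Salivary gland glue genes took 5.01%, 2.46% and 0.0665% of the counts in control, Dcg > Hpo and Dcg > Hpo-RNAi. In Dcg > Hpo, where 18.2% of all genes were at least 2-fold higher than in control, all 7 muscle markers, 5 of 7 neuron markers and 5 of 6 gut markers were. The remaining markers went the other way. The gut marker Amy-d had 21, 1 and 13 counts in the 3 libraries. Relative to control, the neuron markers Syt1 and Rbp9 were 0.541-fold and 0.823-fold in Dcg > Hpo. Only 6 of the 8 listed gut markers had enough counts. The gut markers took 0.00209% of the counts in control, 0.0965% in Dcg > Hpo and 0.00741% in knockdown, and 5 of the 7 muscle markers were at least 2-fold lower in knockdown, where 9.09% of all genes were. The libraries of bulk tissue cannot tell fewer cells of a type from less RNA per cell, and these tissues' part in the values of the ribosomal protein genes was not tested.

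Ribosomal protein transcripts were a large part of every library. The 92 genes together took 16.37% of the counts in control (Wilson 95% interval 16.35 to 16.39), 18.23% in Dcg > Hpo (18.22 to 18.25) and 19.28% in knockdown (19.27 to 19.30). The 31 abundant small subunit genes took 6.81%, 7.71% and 8.08%, and the 47 abundant large subunit genes 9.50%, 10.46% and 11.13%, so the order of the libraries was the same for both subunits. Almost all of this came from the abundant genes. The 14 minor genes summed to 0.0621% in control, 0.0662% in Dcg > Hpo and 0.0657% in knockdown. A share depends on everything else in the library, and the 10 most abundant genes of the series alone took 36.1%, 34.8% and 38.3%.

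**Figure D1:**
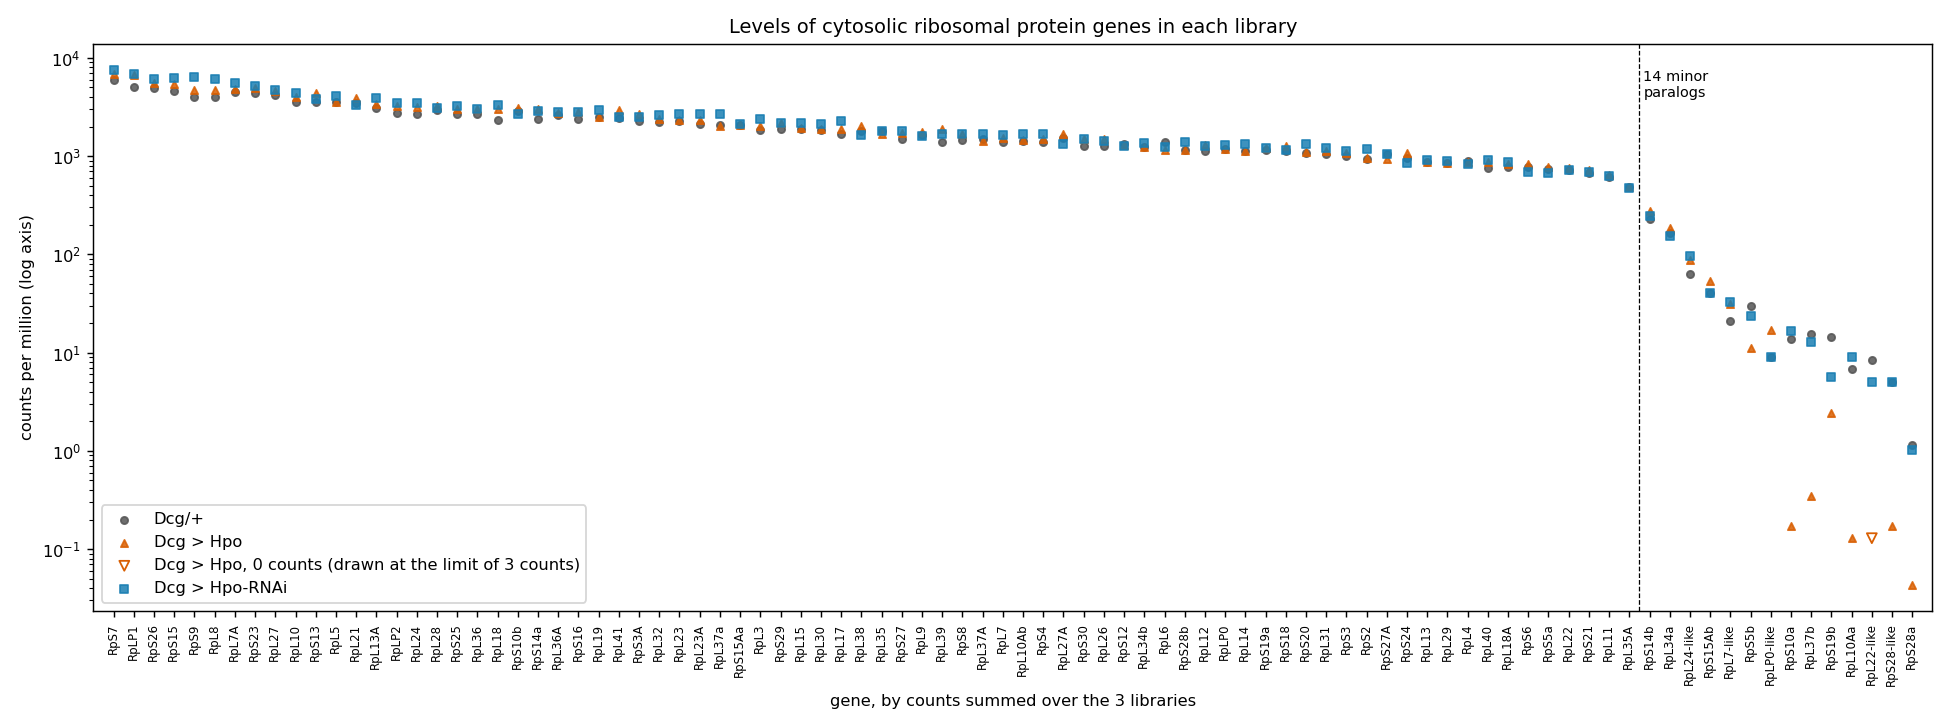
CPM (log axis) of 90 ribosomal protein genes in the 3 libraries, with genes ordered by their counts summed over the libraries and the 14 minor genes to the right of the dashed line. The 76 abundant genes drawn lie between 472 and 7562 CPM in every library, the minor genes lie below them, and several minor genes are lowest in Dcg > Hpo; RpL22-like had 0 counts there and is drawn at the limit of 3 counts.

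The most abundant gene was RpS7, a small subunit protein, with 5952, 6904 and 7562 CPM (counts scaled to the same total) in control, Dcg > Hpo and knockdown. RpLP1, an acidic protein of the stalk, followed with 5008, 6653 and 6806. RpS26, RpS15, RpS9, RpL8, RpL7A, RpS23 and RpL27 were also among the 10 genes with the highest counts. The lowest of the abundant genes in every library was RpL35A, with 479, 481 and 472 CPM. The highest abundant gene exceeded the lowest 12.4-fold in control and 14.4-fold in Dcg > Hpo, although most of the proteins are present in 1 copy per ribosome. With 3′ end reads a transcript gives about the same number of reads whatever its length, so these are levels per transcript, and how completely each 3′ end is annotated and mapped also enters them.

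RpL32, a large subunit protein gene (chr3R:30045229-30046161, minus strand, dm6 coordinates), is shown with its sequences because the study's supplement lists primers for it under Drosophila RT-qPCR. The sequences are given 5′ to 3′.
DM Rpl32 F: agatcgtgaagaagcgcaccaag
DM Rpl32 R: caccaggaacttcttgaatccgg
Dm Rpl32 F: cggatcgatatgctaagctgt
Dm Rpl32 R: cgacgcactctgttgtcg
RpL32 had 49156 counts in control, 55047 in Dcg > Hpo and 62082 in knockdown. Relative to control its share of the counts was 1.06-fold (95% interval 1.04 to 1.07) in Dcg > Hpo and 1.18-fold (1.16 to 1.19) in knockdown. Divided by the median ratio of the abundant genes, these values were 0.968 and 1.02, so RpL32 stood near the middle of its family in both comparisons.

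In Dcg > Hpo relative to control, the abundant genes differed little from each other. Their median ratio was 1.09, 68 of the 78 were above 1, and the ratios ran from 0.837 to 1.37. A gene was called where its share differed at least 2-fold with an interval excluding 1, provided that 1 of the libraries had 10 counts or more. All 92 members had that many counts in every comparison. None was called higher, where 18.2% of all 11834 genes tested were, and the 8 called lower were all minor genes, where 22.8% of all genes were. The median log2 ratio of the 78 abundant genes was 0.126, beside 0.094 for all genes tested. Of the abundant genes, 44 lay above that median of all genes and 34 at or below it. The direction of the family's median against control therefore rested on the scaling: for all 92 members it was 0.114 on library totals and -0.062 with TMM factors, whose all-gene median was -0.081.

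The abundant genes lowest in Dcg > Hpo relative to control were RpL6 (0.837-fold, 95% interval 0.823 to 0.851), RpS27A (0.882-fold, 0.865 to 0.898), RpL35 (0.919-fold) and RpL37A (0.968-fold). RpS27A encodes a fusion of ubiquitin with a small subunit protein. Its exons overlap those of Ip259 on the same strand, so part of its counts could belong to that gene. RpL6 had 30142 counts in control, 26741 in Dcg > Hpo and 29269 in knockdown, and was thus lowest in Dcg > Hpo even as a raw count. At the other end stood RpL39 (1.37-fold, 1.35 to 1.39), RpLP1 (1.33-fold, 1.32 to 1.34), RpL18 (1.30-fold) and RpS14a (1.27-fold). RpL39, a very small protein near the exit of the peptide tunnel, had 30434, 44252 and 39103 counts. Its exons overlap those of RpL12 on the opposite strand, and RpL18 overlaps BHD in the same way, so reads of the 2 genes could mix if counting ignored strand, which was not given in the sources used here.

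In Dcg > Hpo-RNAi relative to control the abundant genes were higher in 65 of 78 cases, with a median ratio of 1.15 and a range of 0.874 to 1.61. None was called higher at 2-fold (background 7.81% of 11521 genes) and none lower (background 9.09%). At a 1.5-fold threshold the background was 15.9% higher and 14.9% lower, and RpS9 and RpL8 were the abundant genes past it, both higher. RpS9, a small subunit protein, had 86850 counts in control, 110520 in Dcg > Hpo and 149935 in knockdown, which is 1.61-fold (1.60 to 1.62) in knockdown relative to control. RpL8, a large subunit protein close to the peptidyl transferase centre, had 86851, 109533 and 144092 counts, or 1.55-fold (1.53 to 1.56). These 2 genes had nearly equal counts in control and stayed close to each other in the other libraries. RpL18 (1.41-fold) came next. The exons of RpS9 overlap those of an antisense RNA gene on the opposite strand.

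The lowest abundant genes in knockdown were RpS6 (0.874-fold, 0.855 to 0.893), RpL27A (0.882-fold, 0.868 to 0.895), RpS24 (0.888-fold, 0.871 to 0.906) and RpL6 (0.905-fold). RpS6 is the substrate of the growth kinase S6k. It had 17071, 19071 and 16014 counts in control, Dcg > Hpo and Dcg > Hpo-RNAi. Its exons overlap those of the pseudogene CR33222 on the same strand, so part of these counts could belong there. The median log2 ratio of the abundant genes was 0.207, beside 0.084 for all genes tested, and 54 of 78 lay above the median of all genes. For all 92 members the median was 0.187, which is 0.103 above that of all genes, and the direction was the same under every scaling tried.

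**Figure D2:**
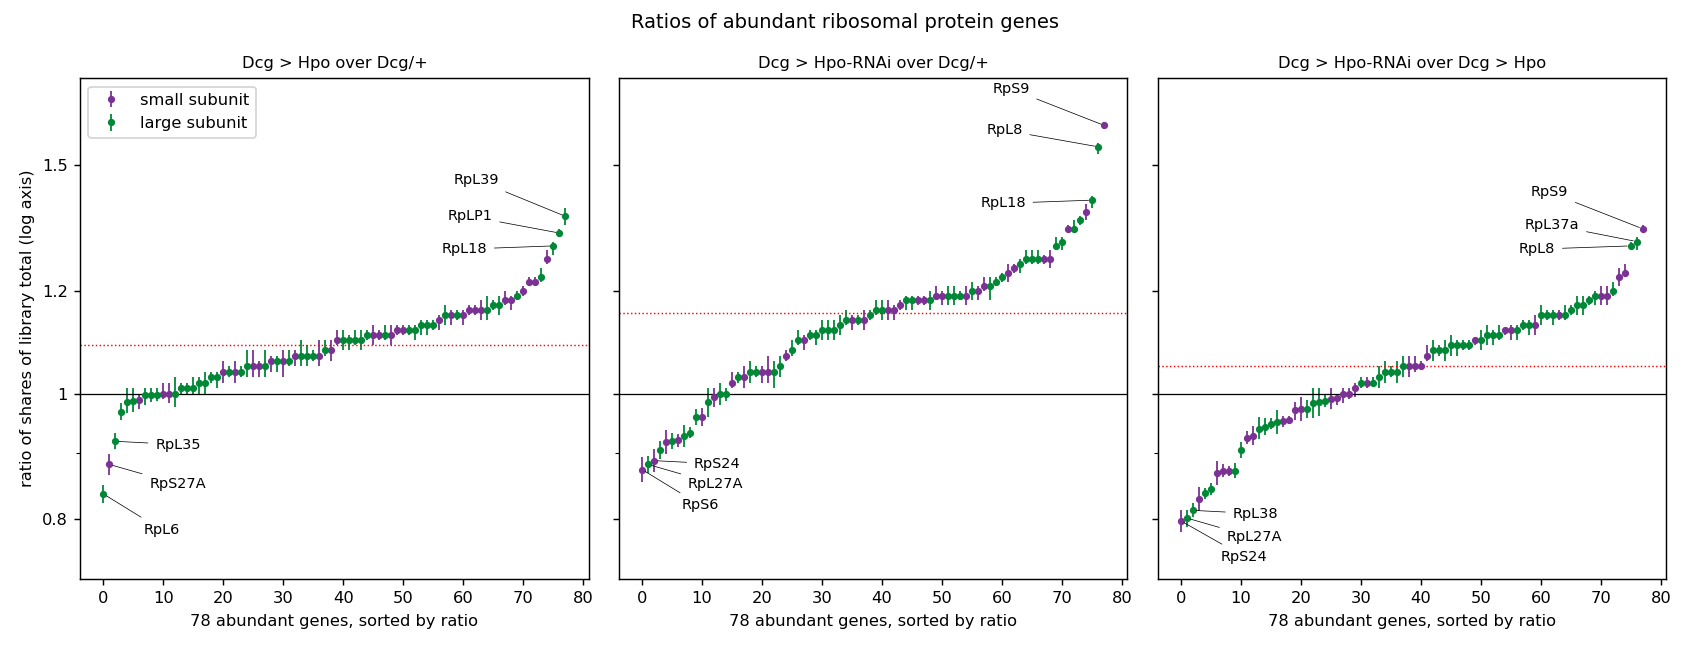
Ratio of shares of the library total (log axis) for the 78 abundant genes, sorted within each comparison and coloured by subunit, with 95% counting intervals as vertical lines, a red dotted line at the median and a black line at 1. The ratios run from 0.837 to 1.37 in Dcg > Hpo over Dcg/+, from 0.874 to 1.61 in knockdown over Dcg/+ and from 0.798 to 1.34 in knockdown over Dcg > Hpo.

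Dcg > Hpo-RNAi was also set against Dcg > Hpo, a comparison that shares a library with each of the other 2 and is no separate evidence. The abundant genes had a median ratio of 1.05 and a range of 0.798 to 1.34. RpS24 (0.798-fold), RpL27A (0.802-fold), RpL38 (0.813-fold) and RpS6 (0.829-fold) were lowest. RpS9 (1.34-fold), RpL37a (1.31-fold) and RpL8 (1.30-fold) were highest. RpL37a, the abundant partner of RpL37b, had 44880, 47483 and 62787 counts in the 3 libraries, so it differed little between Dcg/+ and Dcg > Hpo and was high in knockdown.

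The family was narrow beside other genes with many counts, which were held to a minimum count but not matched to it in depth. The SD of the log2 ratios of the 78 abundant genes was 0.122 in Dcg > Hpo over control, against 0.607 for the 120 other genes with at least 10000 counts in both libraries. The 120 included salivary gland glue genes at 0.413-fold to 0.614-fold. In Dcg > Hpo-RNAi over control the values were 0.183 for the abundant genes and 0.484 for 127 others. All 78 abundant genes were within 1.5-fold in the first comparison and 76 in the second, beside 83 of 120 and 109 of 127 other genes. Most members nevertheless differed from the middle of the family by more than counting error: with the median ratio of the 78 genes taken as fixed, the interval excluded it for 68 genes in Dcg > Hpo over control, 33 above and 35 below, and for 70 in knockdown over control, 35 above and 35 below. With 1 library per genotype it cannot be said whether such differences exceed those between 2 preparations of the same genotype.

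The small and large subunits gave similar medians. In Dcg > Hpo over control the median log2 ratio was 0.151 for the 31 small subunit genes and 0.097 for the 47 large subunit genes, and in knockdown it was 0.215 and 0.190. The 13 abundant genes on the X chromosome had medians of 0.076 and 0.050, against 0.140 and 0.215 for the 65 on autosomes. Across the 78 genes the ratio went with the level: Spearman's rho between the ratio and the counts summed over the libraries was 0.492 in Dcg > Hpo and 0.499 in knockdown over control. These values are across genes of the same libraries, which are not independent replicates, and the summed counts contain those of the ratio. With coding length rho was -0.153 and 0.008.

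Several minor genes of the paralog pairs showed much larger differences than the abundant ones. In Dcg > Hpo, 8 of the 14 were called lower than in control, beside 22.8% of all genes tested. Their ratios ran from 0.371 down to 0.0124, with RpL22-like at 0 counts. These 8 had 25 to 659 counts each in control, far fewer than any abundant gene. Together they had 2084 counts in control, 335 in Dcg > Hpo and 1847 in knockdown. Their abundant partners were not called in any comparison. The share of a minor gene within its pair does not depend on how the libraries are scaled. It is given below for some of the pairs, with Clopper-Pearson 95% intervals for RpL22-like and RpS10a.

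RpL22-like, known for expression in the testis (chr2R:23246610-23247893, minus strand), had 184 counts in control, 0 in Dcg > Hpo and 119 in knockdown. Taking the limit of 3 counts for the 0, it was at least 65.0-fold lower in Dcg > Hpo than in control, and at least 39.2-fold higher in knockdown than in Dcg > Hpo. It made up 1.15% of its pair with RpL22 in control (0.992 to 1.33) and 0.696% in knockdown (0.577 to 0.832). RpL22 itself had 15795, 17638 and 16985 counts.

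RpS10a, a small subunit gene on chr3R:27652760-27653363 (plus strand) known for germ line expression, had 304 counts in control, 4 in Dcg > Hpo and 388 in knockdown. Its ratio to control was 0.0124 (0.00336 to 0.0321) in Dcg > Hpo and 1.19 (1.02 to 1.39) in knockdown. Its share of the pair with RpS10b was 0.474% (0.423 to 0.531), 0.00561% (0.00153 to 0.0144) and 0.612% (0.553 to 0.676). RpL10Aa (chr3R:15037366-15038149, plus strand), the minor partner of RpL10Ab, had 150, 3 and 213 counts, and its ratio to control was 0.0189 (0.00385 to 0.0562) in Dcg > Hpo and 1.32 (1.07 to 1.64) in knockdown. In both of these genes Dcg > Hpo-RNAi had the most counts and Dcg > Hpo almost none.

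RpL37b (chr2R:23100057-23100478, minus strand) had 337 counts in control, 8 in Dcg > Hpo and 302 in knockdown, a ratio to control of 0.0224 (0.00959 to 0.0446) in Dcg > Hpo and 0.835 in knockdown. Both minor partners of RpS28b were low in Dcg > Hpo as well. RpS28-like had 111, 4 and 118 counts, with 0.034-fold (0.00911 to 0.0895) in Dcg > Hpo. It shares exon sequence with CG3769 on the same strand, so part of its counts could belong to that gene. RpS28a had only 25, 1 and 24 counts, and its ratio of 0.0377 in Dcg > Hpo has the wide interval of 0.000919 to 0.231.

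RpS19b and RpS5b were called with less extreme ratios. RpS19b (chr3R:23932729-23933530, minus strand), a partner of RpS19a known from the germ line, had 314 counts in control, 56 in Dcg > Hpo and 133 in knockdown. Its ratio to control was 0.168 (0.124 to 0.224) in Dcg > Hpo and 0.395 (0.320 to 0.485) in knockdown. It was the only member called lower in knockdown at 2-fold, where 9.09% of all genes tested were. RpS5b (chr3R:14900432-14901563, minus strand), known from the germ line of the ovary, had 659, 259 and 550 counts. Its ratio was 0.371 (0.320 to 0.429) in Dcg > Hpo and 0.778 (0.693 to 0.872) in knockdown, and its share of the pair with RpS5a was 3.90%, 1.40% and 3.32%.

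The same 8 genes were the members called higher in knockdown relative to Dcg > Hpo, where 24.3% of all 11906 genes tested were called higher and 19.4% lower, and no member was called lower. Their ratios there ran from 2.10 for RpS5b and 2.35 for RpS19b to 95.8 for RpS10a (37.1 to 353), beside the bound for RpL22-like. At 1.5-fold the members called higher were the same in number, against a background of 29.3%.

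**Figure D3:**
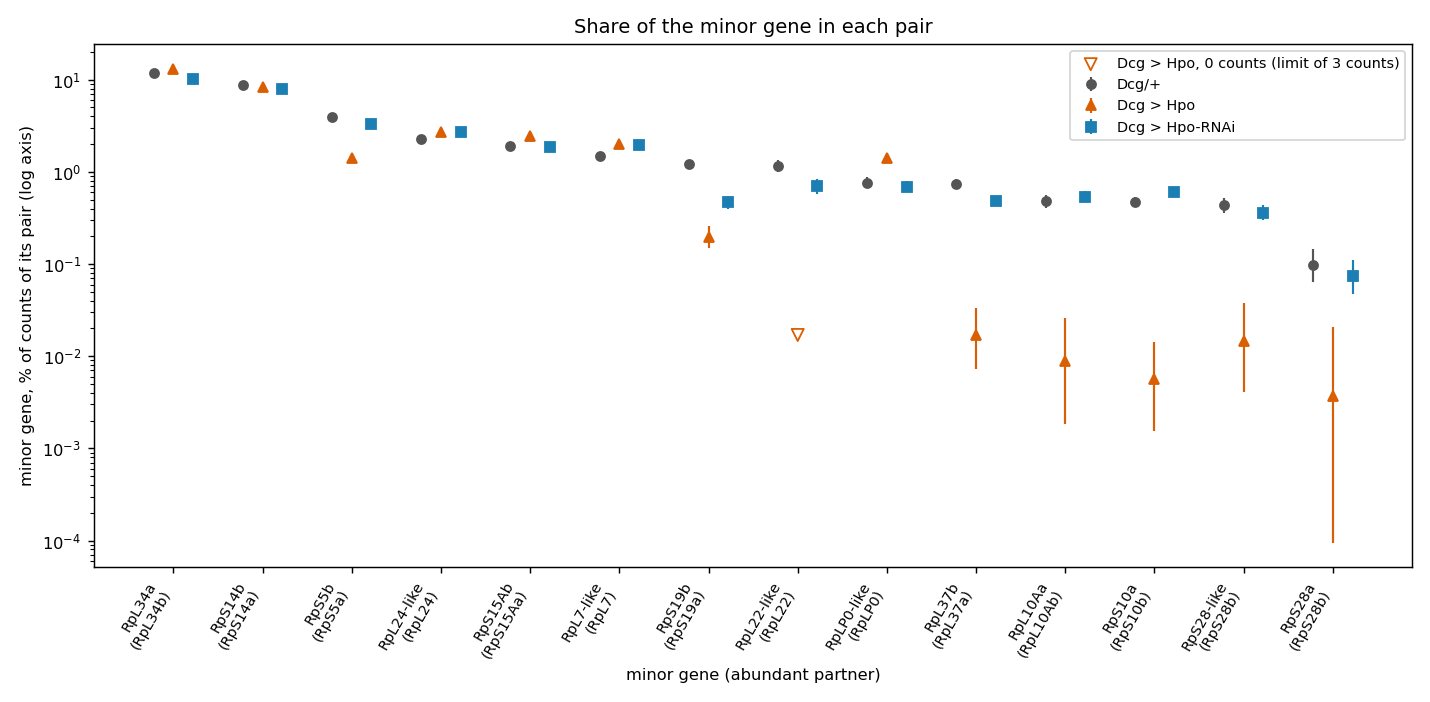
Share of the minor gene in the counts of its pair (percent, log axis) in the 3 libraries, with Clopper-Pearson 95% intervals, pairs ordered by their share in control. In 8 pairs Dcg > Hpo (triangles) lies below both other libraries, and RpL22-like, with 0 counts in Dcg > Hpo, is drawn at the limit of 3 counts.

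The other 6 minor genes were not called in any comparison at 2-fold. All 6 had a ratio above 1 in Dcg > Hpo relative to control, as did 68 of the 78 abundant genes. The 3 whose yeast counterparts act in ribosome assembly had the highest ratios of the 6. Of these only RpLP0-like was called higher at 1.5-fold, where 26.9% of all genes were. RpLP0-like, the counterpart of Mrt4, had 198 counts in control, 393 in Dcg > Hpo and 214 in knockdown. Its ratio to control was 1.87 (1.57 to 2.23) in Dcg > Hpo and 1.01 (0.826 to 1.23) in knockdown, so that it was high in Dcg > Hpo alone. RpL7-like had 459, 726 and 766 counts (1.49-fold and 1.55-fold relative to control), and RpL24-like 1388, 2023 and 2244 (1.38-fold and 1.51-fold). These 2 were thus higher in both genotypes. Their abundant partners RpL7 (30369, 35371 and 38691 counts) and RpL24 (59404, 72525 and 81212) and the partner of RpLP0-like, RpLP0 (25629, 27621 and 30784), were not called. All 3 share exon sequence with another annotated gene: RpLP0-like with Jra and RpL24-like with Dtd on the opposite strand, and RpL7-like with CG34164 on the same strand.

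RpS15Ab, on 2R, had 881 counts in control, 1234 in Dcg > Hpo and 944 in knockdown, or 1.32-fold (1.21 to 1.44) and 0.998-fold (0.910 to 1.10) relative to control. RpL34a had 3590, 4315 and 3650 counts and made up 11.7%, 13.1% and 10.2% of its pair with RpL34b, the largest minor share of any pair. RpS14b (chrX:7934898-7935792) lies next to RpS14a (chrX:7933742-7934677) on the same strand, and the 2 genes are known to encode the same protein. RpS14b had 5002, 6352 and 5784 counts and RpS14a 51925, 70016 and 67526. Their reads may not be separable, so the split of 8.79%, 8.32% and 7.89% is uncertain.

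Most of the called genes shared features of position and structure. These features were not used in the calls, but the pairs were chosen with earlier results of these data known. Of the 8 minor genes called lower in Dcg > Hpo, 7 had their abundant partner on the X chromosome and themselves lay on an autosome, and 6 had a coding sequence in 1 segment, without introns. RpS28a and RpS28-like, both among these 7, share the partner RpS28b. Of the 6 that were not called, 2 had an X-linked partner and 1 a coding sequence in 1 segment. These 6 include RpL7-like, RpL24-like and RpLP0-like, the genes of another kind, all with autosomal partners. Among the other uncalled genes, RpS14b and RpS15Ab had an X-linked partner and RpL34a did not. An X-linked partner thus hardly set the called genes apart from these. RpS14b lies on the X itself. RpS15Ab was the exception among uncalled genes in having both an X-linked partner and an unbroken coding sequence. RpL10Aa was the called gene whose partner lies on an autosome, and RpS5b and RpS19b were the called genes with introns in the coding sequence. Among the 78 abundant genes, 12 had an unbroken coding sequence, including RpS28b, RpS10b and RpS15Aa, so in those pairs both partners lack introns there.

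Since several minor genes are known from the germ line, markers of germ cells were read in the same libraries. Of 20 markers of spermatocytes and sperm, 17 were in the tables, and 16 of the 17 were called lower in Dcg > Hpo and none higher, beside 22.8% and 18.2% of all genes. Their sum was 0.0563% of the counts in control, 0.00211% in Dcg > Hpo and 0.0585% in knockdown, and their median log2 ratio in Dcg > Hpo was -5.58, or -4.43 with genes at 0 set to the limit of 3 counts. The testis regulators aly, can, sa and nht had 102, 48, 45 and 57 counts in control and 0 in Dcg > Hpo. Mst77F, a sperm chromatin protein gene, had 480, 1 and 560 counts in control, Dcg > Hpo and knockdown. The sperm gene dj had 2858, 69 and 3573 counts, and loopin-1 had 1042, 13 and 1089. In Dcg > Hpo-RNAi 1 of the 17, tomb, was called lower (0.444-fold, 0.280 to 0.692), beside 9.09% of all genes, and the median log2 ratio was -0.04.

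Markers of the early germ line were less uniform. Of 12 listed, 10 had enough counts, and 4 of them were called lower in Dcg > Hpo: vas (63, 7 and 50 counts in control, Dcg > Hpo and Dcg > Hpo-RNAi), bgcn (65, 4 and 75), mael (46, 19 and 47) and AGO3 (41, 20 and 24). None was called higher, and the shares among all genes were 22.8% lower and 18.2% higher. Of the 10, 8 had a ratio below 1 in Dcg > Hpo and 2 above, with a median log2 ratio of -0.434. The 2 above 1 were the piRNA gene piwi, with 219, 341 and 224 counts, and the differentiation factor bam, with 140, 258 and 27. In knockdown bam was the 1 marker of the 10 called lower (0.180-fold, 0.114 to 0.273), beside 9.09% of all genes. The summed share was 0.00312%, 0.00316% and 0.00225%, osk was at 0 in every library, and zpg had 5, 0 and 6 counts. The part of gonad RNA in the values of the 8 minor genes was not tested.

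**Figure D4:**
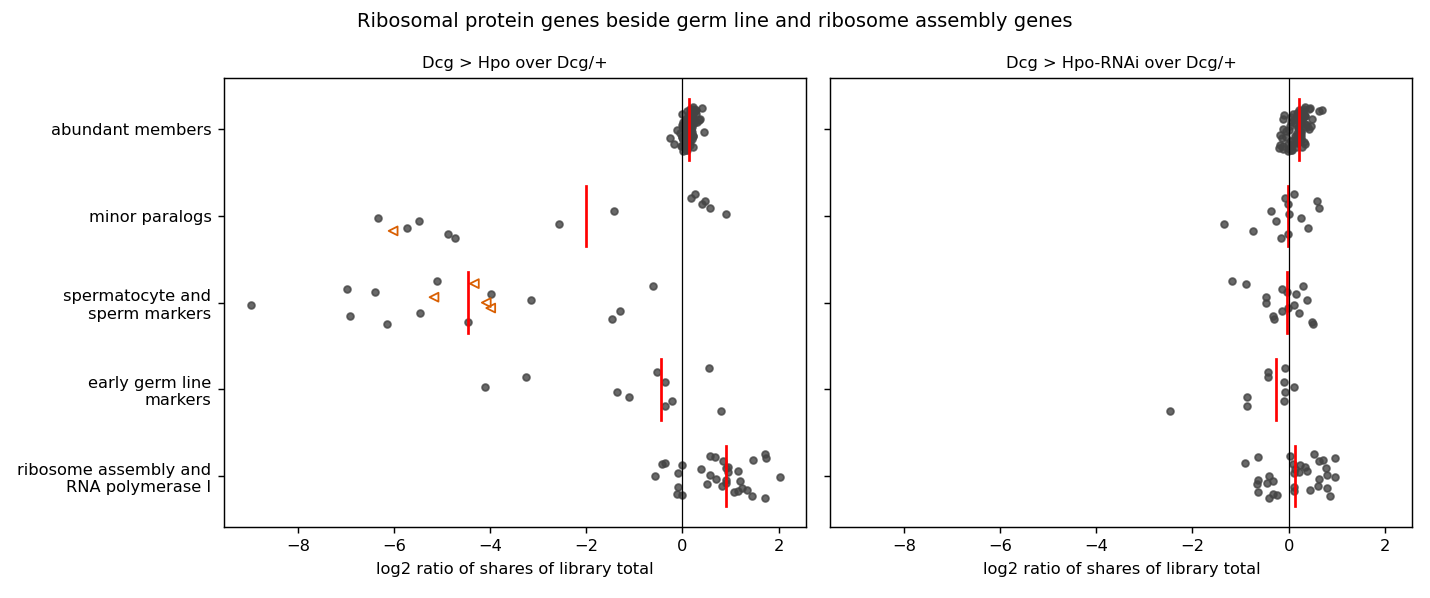
Log2 ratio of shares of the library total relative to Dcg/+ for the abundant and minor ribosomal protein genes and 3 other lists, 1 point per gene with 10 counts or more in 1 of the libraries compared, with red bars at the medians. Open triangles are genes with 0 counts in Dcg > Hpo set to the limit of 3 counts, 1 minor gene and 4 spermatocyte markers; the abundant genes form a narrow group near 0 in both panels.

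Genes that make or assemble ribosomes differed more from control than the abundant ribosomal protein genes in Dcg > Hpo. Of 33 measured genes for ribosome assembly and RNA polymerase I, 12 were called higher and none lower relative to control, beside 18.2% higher and 22.8% lower among all genes tested, and the median log2 ratio was 0.90, beside 0.126 for the abundant ribosomal protein genes and 0.094 for all genes. Nop60B, the pseudouridine synthase of the H/ACA particles, had 253 counts in control, 1093 in Dcg > Hpo and 532 in knockdown, or 4.08-fold (3.55 to 4.69) and 1.96-fold (1.68 to 2.28). The C/D particle protein nop5 had 153, 544 and 322 counts, or 3.36-fold (2.80 to 4.04) and 1.96-fold. The nucleolar gene mbm had 18, 63 and 28 counts (3.30-fold, 1.93 to 5.93, in Dcg > Hpo). The list was not uniform: in Dcg > Hpo 25 ratios were above 1 and 8 below. Tif-IA had 173, 143 and 99 counts, or 0.780-fold in Dcg > Hpo and 0.533-fold in knockdown. In Dcg > Hpo-RNAi no gene of the list was called relative to control, and the median log2 ratio was 0.13.

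Neither of the 2 measured genes for ribosomal proteins or their partners under other names was called. The small subunit gene sta had 26595, 32220 and 37481 counts, or 1.14-fold and 1.31-fold relative to control. Rack1, which binds the small subunit, had 54189, 53677 and 80904 counts, or 0.935-fold and 1.39-fold. Of 11 measured regulators of ribosomal protein genes or mRNAs, dm (the fly Myc gene) and Dref were called higher in Dcg > Hpo and Thor lower, shares no larger than the 18.2% higher and 22.8% lower among all genes. dm had 591, 2615 and 836 counts, which is 4.18-fold (3.82 to 4.57) in Dcg > Hpo and 1.32-fold (1.18 to 1.47) in knockdown. Dref had 79, 177 and 83 counts. Thor, the fly 4E-BP that holds back cap-dependent translation, had 16921, 6340 and 14424 counts, or 0.354-fold (0.343 to 0.364) in Dcg > Hpo. The kinase gene Tor was the regulator called lower in knockdown, with 173, 202 and 53 counts (0.285-fold, 0.206 to 0.390). This 1 of 11 is about the 9.09% of all genes called lower there.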

How the data were processed

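RNA of 3 genotypes was measured in 1 library each. The authors deposited the raw count of reads for every gene, made by a service provider on genome build dm6 and left unnormalized. Which aligner and counter were used, and whether strand was considered, is not given in the sources used here. The members, the pairs and the marker lists were chosen with earlier results of these data known.

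Counts were divided by library totals (21918672, 23227940 and 23524682). For ratios, the exact Clopper-Pearson 95% interval of a gene's split over 2 libraries was computed (scipy 1.17.1); PCR copies are not separate molecules, so it covers counting error only. Log2 ratios used a pseudocount of 1. A called gene differed at least 2-fold with an interval excluding 1, where 1 of the libraries had 10 counts or more. A count of 0 was replaced by 3 for bounds. Alternatives were size factors by median of ratios (DESeq2 1.42.0) or by TMM (edgeR 4.0.16), quantiles made equal (limma 3.58.1), totals without the 10 most abundant genes, other count minimums, pseudocounts and thresholds, and counts per coding length. The calling step was tested on simulated data.

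Genes to be named were taken from all members of pairs, the 10 most abundant members, the 4 highest and 4 lowest abundant members per comparison, RpL32, and up to 3 genes per other list and comparison with the largest change. Not all of these are given values in the text, tissue markers least of all, and 2 members are not reported here. These list genes were named after their values were seen: aly, can, sa, nht, dj, loopin-1, AGO3, piwi, osk, zpg, Syt1 and Rbp9. Coordinates are from Ensembl release 115 (BDGP6, the coordinates of dm6), in which 90 members matched by symbol and 2 (RpL37a and RpL37b) by synonym. Exons of 32 members overlap another annotated gene. Of the 16509 symbols, 17 are on more than 1 row, and none of these is a member.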

Additional observations from a re-analysis of the deposited data

How the results depend on the processing

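No paired analysis was possible because each genotype has 1 library. The members' median log2 ratio moved with the scaling. In Dcg > Hpo over control it was 0.114 on library totals, -0.062 with TMM factors and -0.016 with median-of-ratios factors, both of the opposite sign, 0.045 after quantile normalization and 0.083 on totals without the 10 most abundant genes, while its distance from the median of all genes, 0.020 on totals, was between -0.043 and 0.020 under these alternatives and 0.114 with no filter on low counts. In Dcg > Hpo-RNAi over control the same alternatives gave 0.097, 0.114, 0.162 and 0.237, and in Dcg > Hpo-RNAi over Dcg > Hpo 0.177, 0.147, 0.165 and 0.171, beside 0.187 and 0.090 on totals. The distance from all genes went from 0.103 to 0.187 with no filter in the first of these comparisons, and from 0.106 to 0.242 after quantile normalization in the second. The summed share was 16.31%, 18.17% and 19.22% for abundant members alone, and 25.63%, 27.95% and 31.26% of the counts without the 10 most abundant genes. At 1.5-fold, 1 member was higher in Dcg > Hpo over control (RpLP0-like, background 26.9%), 4 were higher and 2 lower in Dcg > Hpo-RNAi over control (RpL24-like, RpL7-like, RpL8 and RpS9, and RpL22-like and RpS19b, background 15.9% and 14.9%), and 1 was lower in Dcg > Hpo-RNAi over Dcg > Hpo (RpLP0-like, background 27.6%). At 3-fold, 0 were lower in Dcg > Hpo-RNAi over control (background 5.41%). Of 246 recomputed ratios of minor genes, 243 kept their call, no called ratio crossed 1, and 7 ratios of 5 genes that were not called did (RpL34a, RpS14b, RpS15Ab, RpLP0-like and RpS28-like, between 0.946 and 1.03 after crossing). The 3 other calls were RpS28a in both comparisons with Dcg > Hpo when 50 counts were required, and RpS19b in Dcg > Hpo-RNAi over Dcg > Hpo after quantile normalization (1.93-fold). Leaving out minor genes that overlap another gene, an alternative chosen after seeing the data, left 7 of the 8 called lower in Dcg > Hpo. Divided by coding length, 35 of 42 shares of minor genes stayed within their interval. Depth limited the minor genes most: the ratio of RpS28a, from 25 counts in control and 1 in Dcg > Hpo, had an interval of 0.000919 to 0.231.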
